A study of Mus musculus with 6 samples.

Results

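The genes described are 10 genes of oestrogen signalling: the oestrogen receptors Esr1 and Esr2, the target genes Pgr, Greb1 and Stc2, the co-regulators Nrip1, Cited1 and Cited2, and the oestrogen-responsive genes Rasd1 and Pttg1. They were chosen by symbol from a table of 22869 genes, and each was represented by the transcript row whose mean across the 6 libraries was highest. Cited2 was picked because of its level in lactotropes, so its values are a description with no test. All 10 genes had at least 1 row, and 7 of them had a mean of at least 1 FPKM (a fragment count divided by transcript length and by the mapped fragments of its library), the level needed for testing. Esr2, Pgr and Stc2 fell below it.

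Both groups came from pituitaries of females of a CD1 x C57BL/6 hybrid strain, taken at 6 to 8 weeks of age with no treatment listed, and were separated by fluorescence-activated cell sorting. Somatotropes, which secrete growth hormone, and lactotropes, which secrete prolactin, had 3 libraries each, titled biological replicates 1 to 3. Sources used here do not give the marker or gate of the sort, any reporter allele, the number of animals per library or the stage of the oestrous cycle. The p-values therefore measure the spread between these libraries only. These are bulk samples, in which fewer cells of a type and less RNA per cell cannot be told apart.

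Oestradiol enters the cell and binds the oestrogen receptors, which are transcription factors of the nuclear receptor family. The bound receptor sits on oestrogen response elements in DNA and recruits coactivators or corepressors, which set how strongly target genes are transcribed. In the pituitary, oestrogen is known for driving prolactin transcription and the growth of lactotropes, mainly through oestrogen receptor alpha, the product of Esr1.

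Several facts of the libraries bear on the values below. Gh, the growth hormone gene, stood at 19384 to 84909 FPKM across somatotropes and 3954 to 7623 FPKM across lactotropes. Prl, the prolactin gene, stood at 8709 to 24481 FPKM across somatotropes and 25171 to 195325 FPKM across lactotropes, so each hormone was also read in the other sort. Replicate 1 stood apart in both cell types: 57.7% of the 11642 tested genes were higher in both replicate 1 libraries than in the other 4. Summed over 9 macrophage and leukocyte markers, the replicate 1 libraries held 272 FPKM (somatotrope) and 797 FPKM (lactotrope), and the other 4 held 2845 to 12331 FPKM. All 9 of these markers were higher in the lactotrope library in all 3 replicate pairs, as were 11.2% of all tested genes. The summed level of 6 gonadotrope markers was highest in somatotrope 3, at 1781 FPKM against 134 to 754 FPKM in the others. Cga, which also marks thyrotropes, made up 1675 FPKM of that sum. Corticotrope and melanotrope markers, 4 in number, also summed highest in somatotrope 3, at 5773 FPKM against 95.2 to 1213 FPKM. Pomc alone was 5758 FPKM there, while Tbx19 and Crhr1, of the same list, were highest in lactotrope 1, at 15.4 and 6.33 FPKM. The 4 erythroid markers summed to 2147 and 1769 FPKM in the replicate 3 libraries and to 2.95 to 164 FPKM in the other 4. The 6 endothelial markers summed to at most 3.31 FPKM in any library. Fragment numbers are unknown, so a listed 0 has no stated detection limit.

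None of the 6 tested genes other than Cited2 passed the test between cell types. In limma, a linear model fitted over all 11642 tested genes with Benjamini-Hochberg adjustment, 0 genes of the whole table passed at an adjusted p of 0.05 (0.0%), so the count for these 6 genes reads against a background of 0.0%. At an unadjusted p under 0.05 there were 0 of the 6 with or without the replicate number as a block, where 0.962% of all tested genes lay below it without the block and 10.9% with it. Within replicate pairs, Esr1 and Greb1 were higher in the lactotrope library in all 3 pairs, 2 of these 6 genes, against 11.2% of all tested genes. None of the 6 was higher in somatotropes in all 3 pairs, against 22.9% of all tested genes. Cited2, whose lactotrope level chose it, was the only one of the 7 tested genes whose cell types did not overlap. Of all tested genes, 1.15% separated toward lactotropes, and nothing is read from Cited2 against that share.

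**Figure D1:**
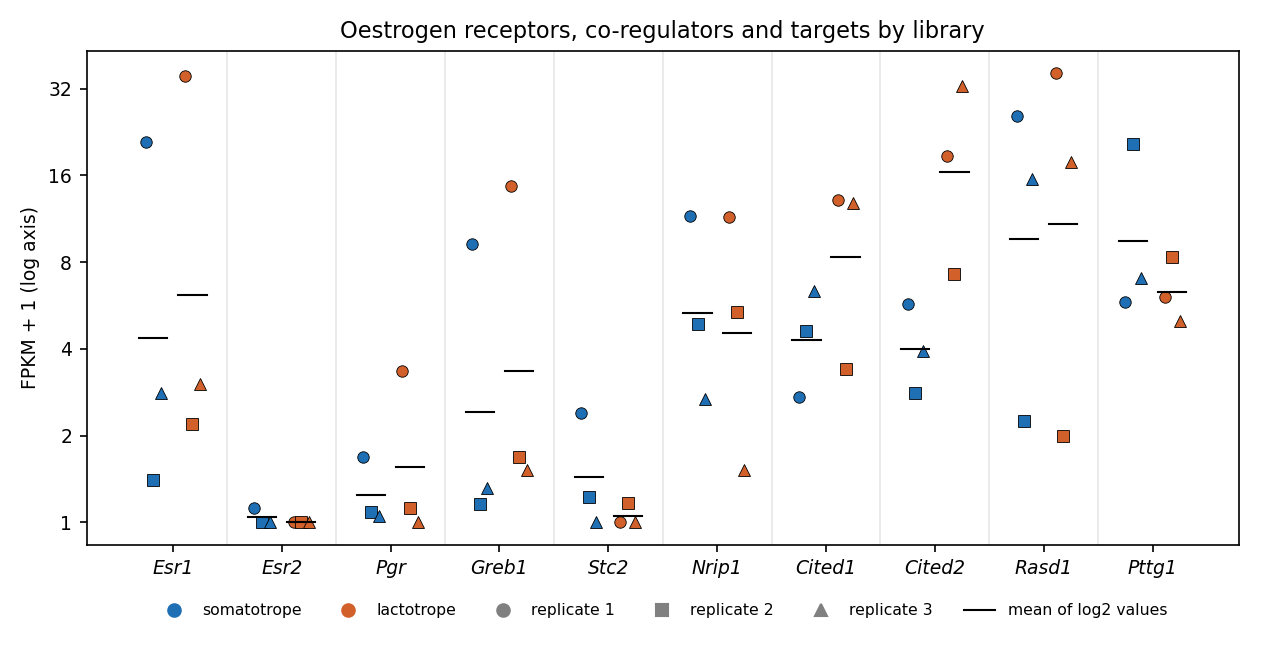
FPKM + 1 on a log axis for the 10 genes in each of the 6 libraries, somatotropes in blue and lactotropes in orange, where symbol shapes tell replicate numbers apart and black lines mark the mean log2 value. Esr1 and Greb1 lie highest in replicate 1 of both cell types, and Cited2 lies higher in all 3 lactotrope libraries (6.29 to 31.8 FPKM) than in any somatotrope library (1.82 to 4.72 FPKM).

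Esr1, which encodes oestrogen receptor alpha, was read in all 6 libraries. It was at 19.9, 0.402 and 1.81 FPKM across somatotropes 1, 2 and 3 against 34.3, 1.19 and 2.03 FPKM across lactotropes 1, 2 and 3. Both replicate 1 libraries were far above the other 4, and within each replicate number the lactotrope library was the higher. The lactotrope level was 1.72, 2.95 and 1.12 times the somatotrope level in pairs 1 to 3. The cell types overlapped, with a lactotrope mean of 12.5 ± 18.9 FPKM beside a somatotrope mean of 7.38 ± 10.9 FPKM (SD, n = 3). On the log2(FPKM + 1) scale, which understates changes of low genes, the difference, somatotrope minus lactotrope, was -0.50 (SE 1.15), and it did not pass limma's test (adjusted p = 1.00, and 0.627 with the replicate block). An exact two-sided permutation test of Esr1 alone gave p = 0.6, where 3 against 3 libraries cannot go below 0.1. The difference was 0.76 without lactotrope 1, 0.31 without somatotrope 2 and -1.64 without somatotrope 1, so its sign between cell types depends on which library is left out. It was -0.77 with a pseudocount of 0.1 and -0.30 with one of 5.

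The rank of Esr1 within a library, which does not depend on scaling, moved with the replicate number. Esr1 stood above 78.2% of the tested genes in somatotrope 1 and above 88.6% in lactotrope 1. In replicate 2 it stood above 6.5% in the somatotrope library and 16.6% in the lactotrope library, and in replicate 3 above 31.5% and 45.0%. In every pair its rank was higher in the lactotrope library, though in pair 3 the levels were close, at 1.81 and 2.03 FPKM. A rank also depends on how many other genes read low in that library. Greb1 stood above 26.9% of tested genes at 0.517 FPKM in lactotrope 3, and above 7.9% at 0.687 FPKM in lactotrope 2. The table's mm9 coordinates put Esr1 at chromosome 10, bases 5342780 to 5734495.

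Esr2, which encodes oestrogen receptor beta, was listed at 0 in 5 of 6 libraries and at 0.124 FPKM in somatotrope 1. Gpr30, the older symbol of Gper1, encodes a membrane G protein-coupled receptor described as responding to oestrogen, and its pattern differed from that of Esr1. Gpr30 was at 24.2, 9.06 and 11.7 FPKM across somatotropes 1, 2 and 3 against 6.60, 3.62 and 2.34 FPKM across lactotropes 1, 2 and 3. All 3 somatotrope libraries lay above all 3 lactotrope libraries, as did 2.51% of all tested genes, with a log2 difference of 1.59 (SE 0.66). Gpr30 did not pass limma's test (adjusted p = 1.00, and 0.234 with the replicate block). All 5 tested markers of stem and folliculostellate cells were also higher in the somatotrope library of each pair, as were 22.9% of all tested genes. With S100b, which was not tested, the 6 listed markers summed to 170, 1556 and 945 FPKM in somatotropes 1 to 3. Their sums in lactotropes 1 to 3 were 91.6, 525 and 136 FPKM. The part of these markers' cells in the level of Gpr30 was not tested. Among the orphan relatives of the oestrogen receptors, Esrra was at 0.549 to 3.34 FPKM, Esrrg reached 2.12 FPKM in lactotrope 1, and Esrrb was listed at 0 in all libraries.

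Greb1 encodes a chromatin-bound cofactor of oestrogen receptor alpha and is itself one of the classical oestrogen-induced genes. It was at 8.25, 0.160 and 0.314 FPKM across somatotropes 1, 2 and 3 against 13.7, 0.687 and 0.517 FPKM across lactotropes 1, 2 and 3. As with Esr1, both replicate 1 libraries were far above the rest and the lactotrope library was the higher one in each pair, by 1.66, 4.29 and 1.65 times. The cell types overlapped, and the log2 difference of -0.47 (SE 1.02) did not pass limma's test (adjusted p = 1.00, and 0.642 with the replicate block). The sign turned to 0.59 without lactotrope 1 and 0.06 without somatotrope 2, and without somatotrope 1 the difference was -1.44. It was -0.96 with a pseudocount of 0.1 and -0.23 with one of 5.

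Greb1 had 2 transcript rows on chromosome 12 in mm9, both on the minus strand and ending at base 16677421. NM_001252071, the row used, starts at 16764045 and NM_015764 starts at 16807692, 43647 bases further upstream. The ratio of the first row to the other was 1.04 in somatotrope 1 and 1.05 in each of the other 5 libraries. With a ratio this constant, the rows cannot be read as separate measures of the starts. The RefSeq promoter table for GRCm38.p6 holds a pair of Greb1 start sites that lie the same 43647 bases apart. The 250 bases upstream of each are shown 5′ to 3′ on the gene's strand, because Greb1 is a direct receptor target that was high in the same libraries as Esr1 and because its rows differ in start. Capitals mark GGTCA, the arm of the oestrogen response element, or the same arm on the opposite strand, TGACC.
Greb1 upstream start, chr12:16800887-16801136, minus strand: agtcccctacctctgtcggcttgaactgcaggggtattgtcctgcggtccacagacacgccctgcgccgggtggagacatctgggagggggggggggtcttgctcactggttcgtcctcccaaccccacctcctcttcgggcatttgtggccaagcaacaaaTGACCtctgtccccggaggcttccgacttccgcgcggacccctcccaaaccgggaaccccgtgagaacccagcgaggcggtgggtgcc
Greb1 downstream start, chr12:16757240-16757489, minus strand: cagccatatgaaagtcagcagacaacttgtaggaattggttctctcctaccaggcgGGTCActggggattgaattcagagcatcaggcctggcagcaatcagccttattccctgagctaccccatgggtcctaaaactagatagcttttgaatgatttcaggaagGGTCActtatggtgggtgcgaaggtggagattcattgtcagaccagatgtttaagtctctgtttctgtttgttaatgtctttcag
The upstream window holds 1 arm, on the opposite strand, and the downstream window 2 on the gene's strand. GGTCA on either strand was found in 35.2% of the 32851 windows of this length in the table.

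The full palindromic oestrogen response element, GGTCA and TGACC separated by any 3 bases, was searched on both strands in the same windows. It was in 21 of the 32851 windows (0.0639%) and in none of the 14 windows of the 9 genes that had one. The arm alone, which the full element contains, was in 6 of these 14 windows, in Greb1, Nrip1, Cited1 and Esr2. Rasd1 was not in the promoter table.

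Pgr, which encodes the progesterone receptor and is a textbook oestrogen target, was low everywhere and not tested. It was at 0.690, 0.0868 and 0.0524 FPKM across somatotropes 1, 2 and 3 against 2.35 and 0.120 FPKM in lactotropes 1 and 2, with a listed 0 in lactotrope 3. Its highest values were again in replicate 1, with the lactotrope library the higher of that pair by 3.40 times. Stc2, which encodes the secreted glycoprotein stanniocalcin 2 and is induced by oestrogen in breast cells, was at 1.39 and 0.227 FPKM in somatotropes 1 and 2 and at 0.167 FPKM in lactotrope 2. It was listed at 0 in somatotrope 3 and in lactotropes 1 and 3, so it lacked the high lactotrope 1 value of Pgr and Greb1.

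Replicate 1 was compared with replicates 2 and 3 inside each cell type after the values were seen, as a description with no test. On the log2(FPKM + 1) scale, Esr1 in replicate 1 exceeded the mean of the other replicates by 3.40 in somatotropes and 3.78 in lactotropes, and Greb1 by 2.91 and 3.20. The medians of all tested genes were 0.85 and 1.14. The excess of Esr1 lay above that of 99.1% of tested genes in somatotropes and 99.6% in lactotropes. Greb1 reached the level for testing only through replicate 1, with a mean of 0.420 FPKM over the other 4 libraries, so its excess is not set against that of other genes. Of the 6 tested genes that reached this level without replicate 1, Esr1, Nrip1 and Rasd1 were higher in both replicate 1 libraries than in the other 4, 3 of 6 against 57.7% of all tested genes. This count depends on the row used for Pttg1. In its other row, described below, both replicate 1 libraries (9.47 and 9.73 FPKM) also lay above the other 4 (1.75 to 9.13 FPKM). Esr1 was at least 4-fold above the highest of the other 4, as were 7.46% of all tested genes. The shares and medians of all tested genes, here and by transcript length below, also count genes that reached the level only through replicate 1, as Greb1 did. That set is therefore unlike the 6 genes counted here, and it was not restricted to match them.

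The excess of replicate 1 was larger for long transcripts over all genes. For 11433 tested genes with a GENCODE transcript length, the median log2 excess in somatotropes was 0.43 for lengths over 1000 and up to 2000 bases and 1.61 for lengths over 6000 bases. In lactotropes the same medians were 0.80 and 1.66. Transcripts of up to 1000 bases had medians of 0.59 and 0.87, so the medians did not rise with length at the short end. Esr1 has a transcript length of 4344 bases, and its excess lay above the medians of its length class, 1.27 and 1.50 over 4000 and up to 6000 bases. Greb1 is longer, at 6346 bases. The part of transcript length, and of the lower leukocyte markers in replicate 1, in these values was not tested.

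**Figure D2:**
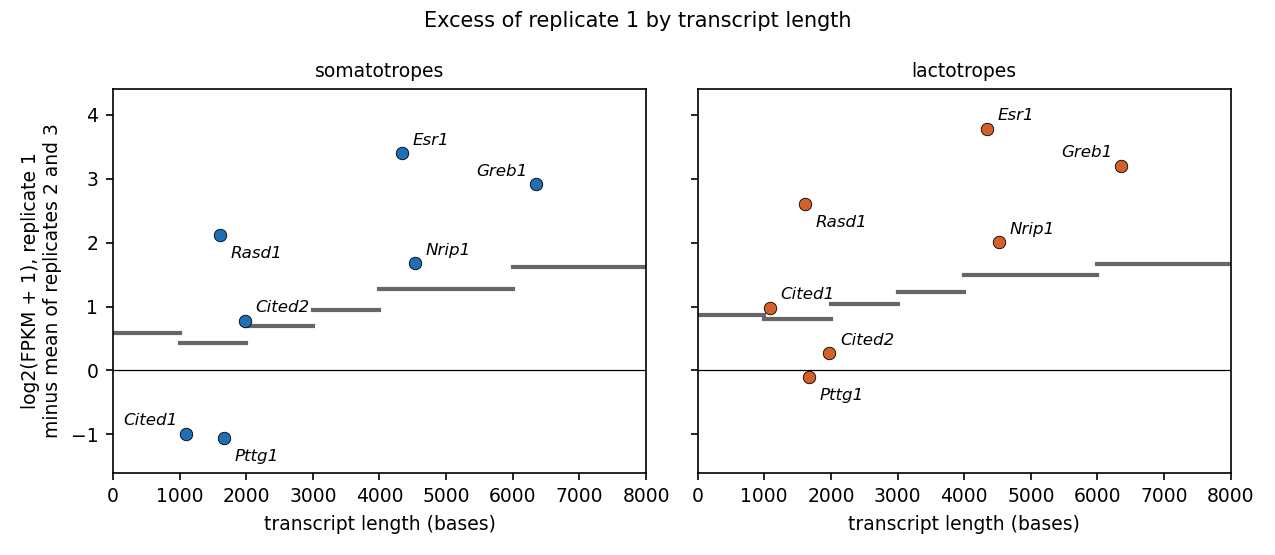
Replicate 1 minus the mean of replicates 2 and 3 on the log2(FPKM + 1) scale against GENCODE transcript length in bases, for the 7 tested genes (points) in somatotropes (left) and lactotropes (right). Grey lines are the medians of all tested genes in 6 length classes, the last of which has no upper limit and is drawn to the edge. Esr1 (3.40 and 3.78), Nrip1 (1.68 and 2.01) and Rasd1 (2.12 and 2.60) lie above the lines in both panels. So does Greb1 (2.91 and 3.20), which was tested only because of its replicate 1 values. Cited2 lies above in somatotropes only (0.78) and Cited1 in lactotropes only (0.98). Pttg1 is drawn from the row used, and its other row was highest in both replicate 1 libraries.

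Nrip1 encodes RIP140, a corepressor that binds oestrogen receptor and other nuclear receptors in the presence of hormone. It was at 10.6, 3.89 and 1.68 FPKM across somatotropes 1, 2 and 3 against 10.5, 4.37 and 0.522 FPKM across lactotropes 1, 2 and 3. The cell types overlapped fully and the pairs had no common direction, with lactotrope to somatotrope ratios of 0.992, 1.12 and 0.311. The log2 difference was 0.23 (SE 0.87) and did not pass limma's test (adjusted p = 1.00, and 0.841 with the replicate block). The sign of this difference turned with quantile normalization (-0.01), with array weights (-0.25), without lactotrope 3 (-0.56) and without somatotrope 1 (-0.33).

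The CITED proteins carry no DNA-binding domain and act by binding the coactivators CBP and p300. Cited1 is known as a coactivator of oestrogen receptor alpha, and Cited2 is known as a competitor of the hypoxia factor HIF-1 alpha for p300 and as a coactivator of TFAP2 factors. Cited1 was at 1.72, 3.60 and 5.36 FPKM across somatotropes 1, 2 and 3 against 12.1, 2.41 and 11.8 FPKM across lactotropes 1, 2 and 3. Lactotropes 1 and 3 lay above every somatotrope library, while lactotrope 2 lay below somatotropes 2 and 3. The log2 difference of -0.95 (SE 0.75) did not pass limma's test (adjusted p = 1.00, and 0.521 with the replicate block), and the exact two-sided permutation test of Cited1 alone gave p = 0.3. It was -1.59 without lactotrope 2, and under array weights, where lactotrope 2 had a weight of 6.24, it turned to 0.31.

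Cited2 was at 4.72, 1.82 and 2.94 FPKM across somatotropes 1, 2 and 3 against 17.7, 6.29 and 31.8 FPKM across lactotropes 1, 2 and 3. Every lactotrope library lay above every somatotrope library, with the lactotrope level 3.74, 3.45 and 10.8 times the somatotrope level in pairs 1 to 3. This separation is what the choice of the gene rests on and is given without a test. The log2 difference was -2.04 and ran from -2.63 to -1.32 over 18 alternatives, with a sign that the choice of the gene fixes. Cited2 stood above 75.7%, 64.3% and 94.9% of the tested genes in lactotropes 1 to 3 and above 33.4%, 27.5% and 44.7% in somatotropes 1 to 3. The rank in lactotrope 3 carries the limit given with the rank of Esr1. It did not follow Esr1, since its highest library was lactotrope 3, where Esr1 was at 2.03 FPKM. All 9 macrophage and leukocyte markers were also higher in the lactotrope library of each pair, summing to 797, 12331 and 4280 FPKM in turn beside 272, 5692 and 2845 FPKM. Among lactotropes their sum was highest in lactotrope 2, where Cited2 was lowest, and their part in the level of Cited2 was not tested.

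Cited2 occupies bases 17443034 to 17445480 of chromosome 10 in mm9. The 250 bases upstream of its start in GRCm38.p6 are shown because Cited2 is the gene here whose cell types did not overlap. They hold neither the full element nor the arm, which says only that these letters are not in this window.
Cited2, chr10:17722978-17723227, plus strand: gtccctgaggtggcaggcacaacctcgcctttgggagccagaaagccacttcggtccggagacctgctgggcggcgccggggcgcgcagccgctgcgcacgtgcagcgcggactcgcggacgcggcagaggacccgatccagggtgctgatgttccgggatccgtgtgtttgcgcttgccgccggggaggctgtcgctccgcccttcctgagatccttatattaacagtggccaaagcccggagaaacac

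**Figure D3:**
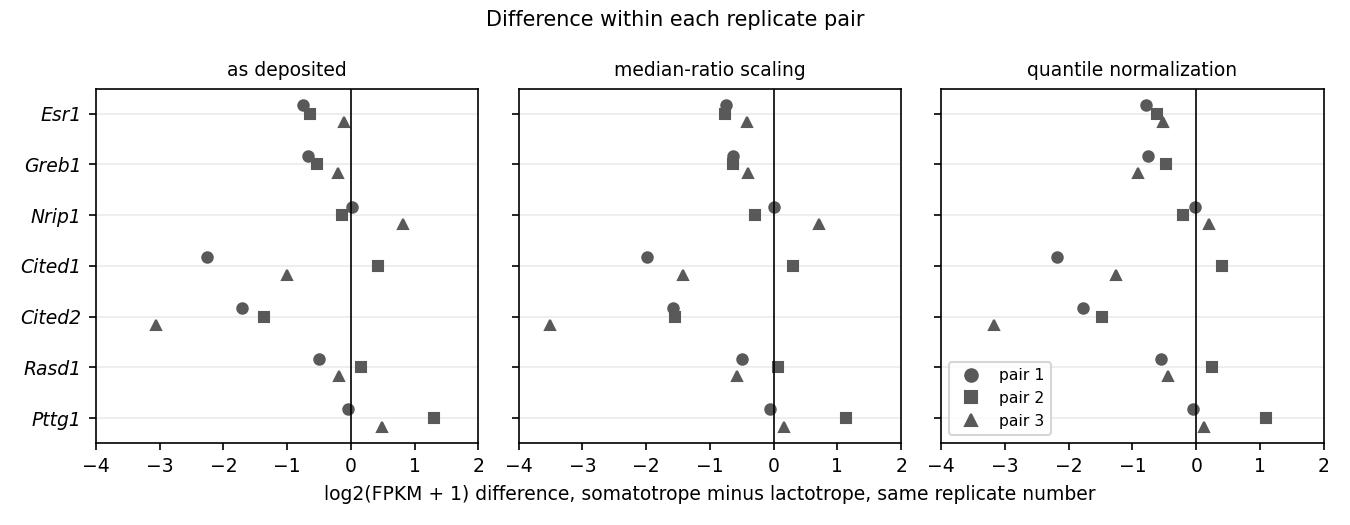
Difference in log2(FPKM + 1), somatotrope minus lactotrope, between the libraries of the same replicate number for the 7 tested genes, as deposited and after each of the scalings named above the panels. Esr1 and Greb1 lie left of 0, toward lactotropes, in all 3 pairs under each of these scalings, as does Cited2, which was chosen for its lactotrope level, and Cited1 and Rasd1 lie right of 0 in pair 2 only.

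Of 8 tested partners and relatives of the CITED proteins, 0 passed in either direction, with a median log2 difference of 0.52. Lhx3, a pituitary LIM-homeodomain factor, was the most abundant at 14.6 to 54.5 FPKM over the 6 libraries. Hif1a stood at 63.4, 11.3 and 9.20 FPKM across the somatotrope libraries beside 54.3, 11.4 and 0.314 FPKM across the lactotrope libraries. Lactotrope 3, its lowest library, was also lowest for other listed genes, such as Safb (0.432 FPKM) and Med1 (0.0055 FPKM). A relation of Hif1a to Cited2 was not tested. Smad2 was at 1.24 to 4.76 FPKM over the 6 libraries. Crebbp, which encodes CBP and is named after its values were seen, was higher in the lactotrope library of each pair, at 0.594 to 4.04 FPKM in somatotropes and 1.06 to 5.04 FPKM in lactotropes (log2 difference -0.29, SE 0.76, limma adjusted p = 1.00). Cited4, a further family member also named after its values were seen, was at 0.914 to 5.20 FPKM in somatotropes and 0 to 1.21 FPKM in lactotropes (log2 difference 1.01, SE 0.71, limma adjusted p = 1.00).

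Rasd1 encodes a small Ras-like GTPase, also called Dexras1, first known as a dexamethasone-induced gene and also as oestrogen-responsive. It was at 24.7, 1.24 and 14.6 FPKM across somatotropes 1, 2 and 3 against 35.2, 1.00 and 16.8 FPKM across lactotropes 1, 2 and 3. The spread was between replicate numbers, with both replicate 2 libraries at the bottom, and the pairs differed little, with lactotrope to somatotrope ratios of 1.43, 0.809 and 1.15. The log2 difference of -0.17 (SE 1.07) did not pass limma's test (adjusted p = 1.00, and 0.853 with the replicate block). Its sign turned when lactotrope 1 (0.69), lactotrope 3 (0.18) or somatotrope 2 (0.88) was left out, and without lactotrope 2 it was -1.40.

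Pttg1 encodes securin, the inhibitor of separase that holds sister chromatids together until anaphase, and is known as a pituitary tumour-transforming gene induced by oestrogen. The row used, NM_013917, was at 4.82, 19.6 and 6.04 FPKM across somatotropes 1, 2 and 3 against 5.03, 7.35 and 4.01 FPKM across lactotropes 1, 2 and 3. Somatotrope 2 was the highest library, and the cell types overlapped. The log2 difference of 0.58 (SE 0.69) did not pass limma's test (adjusted p = 1.00, and 0.586 with the replicate block). It was 0.02 without somatotrope 2.

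The other Pttg1 row, NM_001131054, was at 9.47, 9.13 and 3.03 FPKM across somatotropes 1, 2 and 3 against 9.73, 3.54 and 1.75 FPKM across lactotropes 1, 2 and 3. Both rows lie on the minus strand of chromosome 11 in mm9 and end at base 43233750, and NM_001131054 starts further upstream, at 43239750 against 43239483. The balance of the rows split by replicate number and not by cell type. The level of NM_013917 relative to NM_001131054 was 0.508 and 0.517 in the replicate 1 libraries, and 1.99 to 2.28 in the other 4. The sum of both rows was 14.3, 28.7 and 9.07 FPKM in somatotropes and 14.8, 10.9 and 5.76 FPKM in lactotropes, so in replicate 1 the choice of row sets how Pttg1 ranks against the other replicates. Sources used here do not say how reads were shared between overlapping transcripts.

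**Figure D4:**
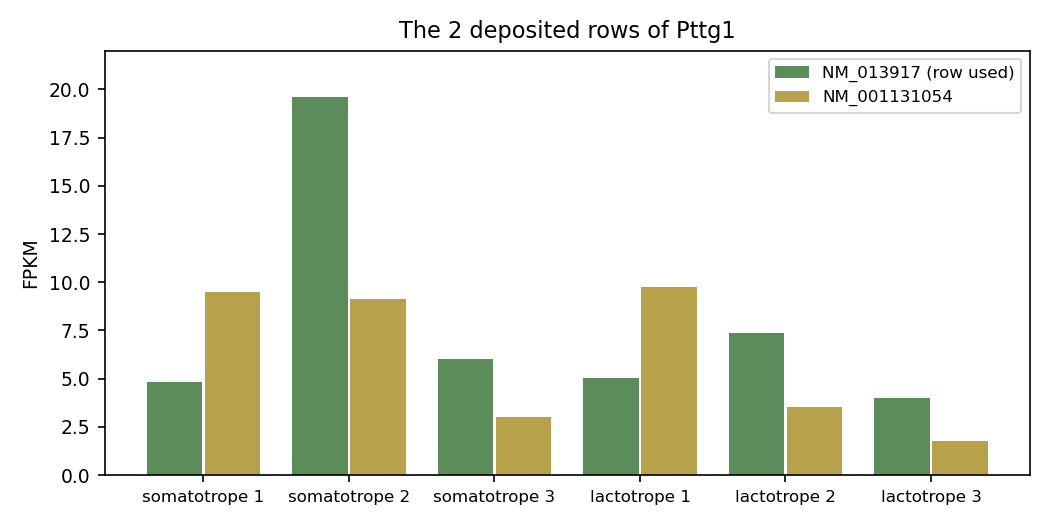
FPKM of the pair of deposited Pttg1 transcript rows in each of the 6 libraries, 1 bar per row and library. NM_001131054 is the higher row in both replicate 1 libraries (9.47 and 9.73 FPKM), and NM_013917 is the higher row in the other 4.

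Of 8 tested securin partners and mitotic genes beside Pttg1, 0 passed in either direction, and 4 were higher in somatotropes in all 3 pairs, where 22.9% of all tested genes were. Pttg1ip, which encodes a securin-binding factor, was at 49.7 to 84.4 FPKM in somatotropes and 25.7 to 74.3 FPKM in lactotropes. Fzr1, an activator of the anaphase-promoting complex, and Smc3, a cohesin subunit, were at 5.05 to 20.6 and 4.54 to 16.1 FPKM over the 6 libraries. Ccnb1, which encodes cyclin B1 and is named after its values were seen, was at 3.47, 2.49 and 0.808 FPKM in somatotropes and at 0.783, 0.713 and 0.739 FPKM in lactotropes, without overlap, as for 2.51% of all tested genes, and with a log2 difference of 0.80 (SE 0.66, limma adjusted p = 1.00).

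The other members' mm9 intervals in the table are chromosome 12, bases 77221406 to 77278246 for Esr2, chromosome 9, bases 8899833 to 8968611 for Pgr, and chromosome 11, bases 31259441 to 31270061 for Stc2. Nrip1 occupies bases 76291107 to 76373294 of chromosome 16, Cited1 bases 99442776 to 99447108 of chromosome X and Rasd1 bases 59776685 to 59778444 of chromosome 11. Each value covers a whole transcript, so exons cannot be told apart.

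In order of mean level, Rasd1 (13.5 FPKM), Pttg1 (10.1 FPKM) and Esr1 (7.38 FPKM) led in somatotropes, and Cited2 (18.6 FPKM), Rasd1 (17.7 FPKM) and Esr1 (12.5 FPKM) in lactotropes. Stc2, Pgr and Esr2 filled the last places in both, with Stc2 above Pgr in somatotropes and below it in lactotropes. In both orders, the ranges over 3 libraries of each gene and the next overlapped, so no step of the order is larger than the spread.

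The genes most like each of these were sought by the root mean square difference of centred log2(FPKM + 1) over the 6 libraries, which share replicate effects. For Esr1 the closest were Snord47 (0.19), Tubb3 (0.21) and Rps18 (0.33). Greb1 was at 0.39 and is given no rank, because it was tested only through replicate 1, where Esr1 was also high. Tubb3 was at 22.4, 0.399 and 1.47 FPKM in somatotropes and 26.7, 1.31 and 2.72 FPKM in lactotropes. For Greb1 they were Mir453 (0.13), Tro (0.14) and Snora17 (0.17), by a profile made mostly of its replicate 1 values. For Cited2 they were Gm1604b (0.29), Mmp23 (0.39) and 2610316D01Rik (0.42), and Cited1 was at 0.84. The lactotrope values that picked Cited2 enter these differences, so nothing is read from them. For Cited1 they were Mir677, Sult4a1 and Tmeff2 (0.24 to 0.33), for Rasd1 Rpl29, Crem and Rpl39 (0.26 to 0.52), for Nrip1 Arhgef18, 2210404J11Rik and Fam48a (0.09 to 0.13), and for Pttg1 Tmem139, Gipc1 and Gm12942 (0.13 to 0.15).

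The wider pathway was described by 14 lists that hold 106 tested genes beside the members. In limma 0 of the 106 passed (0.0% of all tested genes), and 2, Dusp1 and Gpr30, lay at an unadjusted p under 0.05, or 1.89% against 0.962% of all tested genes. With the replicate block 0 passed and 16 lay at an unadjusted p under 0.05, or 15.1% against 10.9%. The median log2 difference of the 106 was 0.25, beside 0.18 over all tested genes. In all 3 pairs, 26 of the 106 were higher in somatotropes and 11 in lactotropes, or 24.5% and 10.4%, beside 22.9% and 11.2% of all tested genes.

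Among the lists of co-regulators, 17 of 20 coactivators and 14 of 17 corepressors reached the level for testing, and the corepressor gene Nr0b2 was listed at 0 in all 6 libraries. Among 16 tested coactivators beside Cited1, 0 passed in either direction and the median log2 difference was 0.06. Ddx5, an RNA helicase that also acts as a coactivator, was the most abundant, at 37.3 to 81.3 FPKM in somatotropes and 41.0 to 106 FPKM in lactotropes. The arginine methyltransferase genes Prmt1 and Carm1 were at 20.1 to 39.1 and 9 to 34.6 FPKM over the 6 libraries. Ncoa1, a steroid receptor coactivator named after its values were seen, was higher in somatotropes in all 3 pairs, at 17.9, 3.86 and 3.38 FPKM against 8.91, 3.79 and 0.649 FPKM (limma adjusted p = 1.00). Of 13 tested corepressors beside Nrip1, 0 passed and the median was 0.12, and the histone deacetylase gene Hdac3 was at 35.2 to 48.1 FPKM in somatotropes and 15.0 to 52.9 FPKM in lactotropes. Hdac2 and the prohibitin gene Phb2 were at 14.9 to 46.0 and 20.3 to 29.6 FPKM over the 6 libraries. Of these coactivators and corepressors, 13 of 16 and 8 of 13 were highest in both replicate 1 libraries, as 57.7% of all tested genes were.

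The chaperones that hold unliganded steroid receptors ready for hormone made up a list of 10 tested genes with 0 passing and a median of 0.08. In every pair, lactotropes were the higher for 4 of these and somatotropes for 2, where the shares of all tested genes were 11.2% and 22.9%. Hsp90ab1, an HSP90 gene, was at 213, 77.4 and 145 FPKM in somatotropes and 264, 119 and 172 FPKM in lactotropes. Hspa8, an HSP70 gene, was at 137, 93.3 and 112 FPKM against 190, 124 and 150 FPKM. Each was higher in the lactotrope library in all 3 pairs with a limma adjusted p of 1.00. Stub1, a chaperone-bound ubiquitin ligase, was at 58.8 to 119 FPKM over the 6 libraries. Of 4 tested partner transcription factors beside Greb1, 0 passed. Xbp1, the most abundant, was at 72.6 to 220 FPKM in somatotropes and 58.9 to 248 FPKM in lactotropes, Sp3 was at 3.95 to 15.9 FPKM over the 6 libraries, and Foxa1, Gata3, Tfap2a and Tfap2c lay below the level for testing.

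Among general oestrogen target genes, 0 of 13 tested genes beside the members passed, with a median of 0.50. Ctsd, which encodes cathepsin D, was at 112, 187 and 139 FPKM in somatotropes and 155, 390 and 261 FPKM in lactotropes, higher in lactotropes in each pair, as the macrophage and leukocyte markers were, and their part in its level was not tested. Igfbp5, an IGF-binding protein gene, was at 26.3 to 56.3 FPKM in somatotropes and 10.4 to 37.4 FPKM in lactotropes. Myc, named after its values were seen, was at 2.55, 3.75 and 1.64 FPKM in somatotropes and 5.98, 6.22 and 4.64 FPKM in lactotropes, without overlap, as for 1.15% of all tested genes (log2 difference -0.89, SE 0.67, limma adjusted p = 1.00).

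Among 9 tested pituitary oestrogen targets beside Pttg1, 0 passed and the median was -0.39. Prl and Drd2, which also mark the sorted lactotropes, were the pair whose lactotrope libraries all lay above the somatotrope libraries, as in 1.15% of all tested genes. Gal, which encodes galanin, was at 537, 97.1 and 61.5 FPKM across somatotropes 1, 2 and 3 against 1463, 75.4 and 66.4 FPKM across lactotropes 1, 2 and 3. Gal was highest in both replicate 1 libraries, as Esr1 and Greb1 were, while it was higher in the somatotrope library in pair 2 and in the lactotrope library in pair 3. Calb1, a calcium-binding protein gene, was likewise highest in replicate 1, at 220 FPKM (somatotrope) and 140 FPKM (lactotrope), and at 8.75 to 33.4 FPKM in the other 4. Of the 9 tested pituitary targets, 3 were higher in both replicate 1 libraries than in the other 4, as were 2 of the 13 general target genes. The share of all tested genes was 57.7%, which also counts genes tested only through replicate 1. These counts leave out the members. Among the members on these lists, Greb1 and the untested Pgr were higher in both replicate 1 libraries than elsewhere. Stc2 and the row used for Pttg1 were not. Whether these targets follow Esr1 was not tested.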

How the data were processed

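RNA sequencing was done on sorted pituitary somatotropes and lactotropes. Per the labels' protocols, Trizol LS took up the sorted cells and the NuGen Ovation V2 kit was used for amplification. The submitters' processing notes name TopHat, edgeR, bcl2fastq 2.17.1.14 and build mm9; sources used here leave out the counting step. The authors deposited FPKM values in a table of 30399 rows, of which 889 had no symbol and were left out. FPKM is not a count, so no count test was run, and the depth is unknown.

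Tests used log2(FPKM + 1) of 11642 genes, those whose mean reached 1 FPKM, in limma 3.58.1 (R 4.3.3) with an intensity trend, Benjamini-Hochberg adjustment at 0.05 and no block. Single genes had a two-sided exact permutation test. The numbers in the titles were taken as pairs, though the labels state no pairing. Same-numbered libraries deviated together from their group means (correlations over genes of 0.763, 0.613 and 0.341). Correlations between libraries of different numbers were not computed. The shared replicate 1 excess enters all 3 values, so they cannot show that the libraries are pairs. The members and lists were chosen with earlier results of these data known. Beside the members, the text names Gh and Prl, the 3 most abundant genes of each pathway list and the 3 genes most alike each tested member; counts of 5 or fewer, and genes marked as named after their values were seen, add others. A few genes that this rule would name are not reported here. The planned protein comparison was not made. Promoters came from RefSeq (GRCm38.p6), where 9 of 10 genes matched, and lengths from GENCODE M21, as the median where several transcripts shared an identifier. Gper1 was matched through its synonym, and Sts had no row under its symbol. The alternatives were pseudocounts of 0.1 and 5, no filter or a mean of 5 FPKM, median-ratio and quantile scaling, summed rows, the replicate block, array weights with and without it, no trend, each library left out, and replicates 2 and 3 only. The code was tested on simulated data.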

Additional observations from a re-analysis of the deposited data

How the results depend on the processing

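The comparison was refitted under 18 alternatives. No gene of the table passed limma in 15 of them; 9 passed with array weights, 43 with array weights and the replicate block, and between 0 and 3 with 1 library left out (3 without somatotrope 1). None of the 6 tested members other than Cited2 passed under any of the 18. With the replicate block alone 0 genes passed, and the median residual SD was 0.394 against 0.868 without it; the block changed no call of a member. The lowest adjusted p of a member over the alternatives was 0.521, for Cited1.

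Differences, somatotrope minus lactotrope, that turned sign are as follows. With array weights Nrip1 was -0.25, Cited1 0.31 and Rasd1 1.06, and lactotrope 2 weighed 6.24 against 0.292 and 0.492 for lactotropes 1 and 3. With quantile normalization Nrip1 was -0.01. Pgr, which was not tested, turned from -0.32 to 0.24 without lactotrope 1 and to 0.02 with replicates 2 and 3 only, where Greb1 was below the level for testing. With 1 library left out, Esr1 ran from -1.64 to 0.76, Greb1 from -1.44 to 0.59, Nrip1 from -0.56 to 0.90 and Rasd1 from -1.40 to 0.88; the single turned values were 0.76 and 0.31 for Esr1, 0.59 and 0.06 for Greb1, -0.56 and -0.33 for Nrip1, and 0.69, 0.18 and 0.88 for Rasd1. Pttg1 turned in none of the 18, but was 0.02 without somatotrope 2. With pseudocounts of 0.1 and 5, Nrip1 was 0.45 and 0.07, Cited1 -1.10 and -0.61, Pttg1 0.64 and 0.42, and Stc2, at 0.44 with a pseudocount of 1, was 1.40 and 0.12. The cause was not tested. Scaling by median ratios put the median of all tested genes at 0.04 and quantile normalization put it at 0.02, from 0.18 in the deposited values. Depth is unknown, so low genes such as Esr2, Pgr and Stc2 have no stated error of counting.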

Other observations

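Other steroid receptors were measured beside the oestrogen receptors. Nr3c1, the glucocorticoid receptor gene, was higher in somatotropes in all 3 pairs, at 24.0, 9.60 and 4.85 FPKM in somatotropes 1 to 3 and 10.6, 5.96 and 2.49 FPKM in lactotropes 1 to 3, with a log2 difference of 0.82 (SE 0.73, limma adjusted p = 1.00). Nr3c2, the mineralocorticoid receptor gene, read 15.0 FPKM (somatotrope) and 3.39 FPKM (lactotrope) in replicate 1 and 0.0261 to 1.42 FPKM in the other 4. Of 7 tested glucocorticoid-induced genes beside Rasd1, 0 passed limma in either direction. Somatotropes were the higher in every pair for 3 of them and lactotropes for 1, where the shares of all tested genes were 22.9% and 11.2%. Dusp1, a phosphatase gene that is also an immediate early gene, was that 1, at 17.9, 34.7 and 231 FPKM in somatotropes and 113, 186 and 495 FPKM in lactotropes (log2 difference -2.03, SE 0.86, limma adjusted p = 1.00). Of the 106 pathway genes, it was the 1 that passed with array weights and the replicate block. Tsc22d3, a textbook glucocorticoid target, was at 34.0 to 57.7 FPKM over the 6 libraries and Sgk1 at 7.02 to 20.8 FPKM.

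Of 8 tested genes of the amino acid and unfolded protein stress response, a list that also holds Stc2, 0 passed limma, and somatotropes were the higher in every pair for 3, beside the same 22.9%. Asns, which encodes asparagine synthetase, read 102 FPKM in somatotrope 1 and 54.9 FPKM in lactotrope 1 and 7.92 to 16 FPKM in the other 4. The transcription factor genes Ddit3 and Atf4 were also highest in somatotrope 1, at 46.7 and 46.4 FPKM, and at 5.92 to 18.8 and 3.77 to 22 FPKM in the remaining libraries. Of the oestrogen synthesis and metabolism list, 0 of 4 tested genes passed, and Cyp19a1, the aromatase gene, was listed at 0 in all 6 libraries. Over the 6 libraries Hsd17b12 was at 9.41 to 40.6 FPKM and Hsd17b4 at 2.96 to 15.7 FPKM. Of 5 tested relatives and partners of Rasd1, 0 passed. The G protein subunit genes Gnai2 and Gnai3, the most abundant of these, were at 41.9 to 73.3 and 12 to 54 FPKM, and Adcy6, an adenylyl cyclase gene, at 0.0413 to 9.9 FPKM.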
